A study of Saccharomyces cerevisiae with 26 samples.

Results

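Cold during sporulation, held for 4 h, was examined on 4 of the 26 yeast arrays of the study, 2 of cells kept at 10 °C and 2 of cells filtered and held for the same time without a stated cold treatment. The 4 arrays were taken by their titles, so no measured value entered the choice. All the cells shared 1 history: saturation in rich glucose medium over 24 h, a night in acetate medium at 30 °C, and transfer at room temperature to sporulation medium with 0.3% potassium acetate at an optical density of 1.9. After 4 h in that medium the cells were filtered. The cold group (2 arrays, called the cold arrays) then went into pre-chilled medium with DMSO at 10 °C and was sampled after 4 h, whereas the control group (2 arrays, called the control arrays) went into medium for 4 h, with neither DMSO nor a temperature given after the filtration. First and second array of a group refer to the replicate numbers. The labels name no strain and no genotype, and do not say that the replicates were separate cultures, so the p-values measure the spread between arrays, which may be technical. Cold and DMSO cannot be told apart within this comparison, because DMSO is named for the cold medium and not for the control.

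The other groups serve as reference points, each with 2 arrays: cells at 4 h of sporulation before any filtration, filtered controls at 1 h, cold cells at 1 h, cells in 0.4% DMSO at 1 h and 4 h, and cells treated for 4 h with benomyl, a drug from a DMSO stock that binds tubulin and depolymerizes microtubules. DMSO on its own can be judged at 1 h only, against filtered cells without it. There 37 of 5464 genes (0.677%) passed the test (0.458% higher and 0.22% lower), of which 14 were also called in the same direction in the cold at 4 h and 10 in the opposite direction.

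Sporulation of budding yeast runs as a cascade of gene expression. Starvation for nitrogen and for a fermentable sugar switches on IME1, whose protein turns on early genes for DNA replication and recombination; the transcription factor Ndt80 then drives the middle genes, which carry the cells through the meiotic divisions and build the prospore membrane, and later genes make the spore wall. Microtubules are known to be cold labile, and in growing yeast a shift to low temperature is known for inducing the nucleolar protein Nsr1, RNA helicases and the cell wall mannoproteins of the TIP1 family.

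Both genes named as marks of sporulating cells separated the groups. The signal of SPO19 (YPL130W), a sporulation-specific membrane protein, was 4.58 and 4.43 on the cold arrays and 9.24 and 9.40 on the control arrays on the log2 scale. SPR3 (YGR059W), the sporulation septin, gave 5.14 and 4.76 on the cold arrays and 9.57 and 10.04 on the control arrays. The cold arrays were low and the control arrays high in both genes, without overlap. All their cold values lay under 5.44, the 25th percentile of all values and the filter level used here, which both genes passed through groups where they are high. Values under that level are taken as having no order, and a fall to them is read as a lower bound against the level: SPO19 was at least 14.7-fold lower in the cold and SPR3 at least 20.5-fold. The fitted log2 differences, cold minus control, were -4.81 ± 0.39 (SE; adjusted p = 2.66e-08) for SPO19 and -4.85 ± 0.34 (SE; adjusted p = 5.9e-09) for SPR3, and the fitted sizes of such genes are no exact folds. Before filtration SPO19 stood at 4.12 and 4.18 and SPR3 at 4.25 and 4.22, also under the level, so their cold levels and those before filtration cannot be ordered.

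Replicates lay close together: the Pearson correlation over all probe sets was 0.992 for the cold arrays and 0.995 for the control arrays, against 0.912 to 0.928 between the groups. The furthest replicates in the study were those of benomyl at 1 h (0.942) and of the filtered control at 1 h (0.963), whose spread enters the shared error of every test. Markers of other cells are set beside the shares over all genes tested, 22.3% higher and 18.6% lower in the cold. Of 17 mitotic cell cycle genes 7 were higher and 4 lower. The log2 of their summed signal was 11.33 and 11.56 on the cold arrays and 10.84 and 10.78 on the control arrays. Their median signal went the other way, with 5.90 and 6.19 on the cold arrays and 6.17 and 6.35 on the control arrays. The B-type cyclin CLB2 stood at 5.46 and 5.48 in the cold and 5.66 and 5.53 in the control, near the filter level. Without the first cold array 1 mitotic gene was lower. Of 16 genes tested from a list of 18 haploid mating genes, 3 were higher and 6 lower, with log2 summed signals of 11.36 and 11.35 against 11.12 and 11.17. The gene MFA2 raised those sums in the cold. The median signal of the list went the other way, with 6.16 and 6.14 on the cold arrays and 6.30 and 6.40 on the control arrays. The a-factor gene MFA2 alone rose by more than 2-fold, with 9.93 and 9.95 on the cold arrays and 7.80 and 7.78 on the control arrays (log2 difference 2.15 ± 0.14 SE, adjusted p = 1.51e-09), while the receptor genes STE2 (0.43, adjusted p = 0.0574) and STE3 (-0.51, adjusted p = 0.0656) did not pass the test. With the first or the second cold array left out, 1 of the haploid genes was higher. The part of these cell type markers in the results was not tested. The 3′ minus 5′ difference of the actin control probe sets was -1.45 and -1.41 in the cold and -1.66 and -1.59 in the control. For the control probe sets of YER022W it was 2.36 and 2.61 in the cold and 2.13 and 2.45 in the control. For those of YER148W it was 4.71 and 4.69 in the cold and 4.94 and 4.87 in the control, the other direction from actin. The part of these differences in the results was not tested.

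The cold comparison was broad. Of 5464 genes tested, 2236 (40.9%) differed at an adjusted p under 0.05 in limma with Benjamini-Hochberg adjustment, 1220 higher (22.3%) and 1016 lower (18.6%), and 358 rose and 336 fell by at least 2-fold. The cold mean lay under 5.44 for 115 of the 1016 falls and 61 of the 336, and the control mean for 100 of the 1220 rises and 32 of the 358. On all 2236 the cold and the control arrays did not overlap, as was true of 80.5% of all genes tested. Over probe sets the test called 2847 of 7876, of which 53.6% were higher. With the values as deposited, without quantile normalization, 2787 were called and 41.0% of them were higher, so the balance of rises and falls depended on the scaling. Against the 4 h DMSO control of the other array set 4794 were called. The percentages above are the background for every list that follows, and the median log2 difference of all genes was 0.03.

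Several of the genes with the largest falls are known from the later part of the sporulation programme. Of the 15 with the largest fitted falls, 8 had a cold mean above the filter level. Among these were the uncharacterized YPR078C (-5.25), PES4 (-5.03), a poly(A)-binding protein relative, LDS2 (-5.003), a lipid droplet protein of spore wall assembly, and RRT5 (-4.99). SPR2, IRC18, CDA2 and SPS4 were the others, between -4.96 and -4.19. The remaining 7 had cold means under the level, so their order among the 15 is not read. The uncharacterized gene YDL186W, with 4.27 and 4.10 on the cold arrays and 9.31 and 9.85 on the control arrays, was at least 17.6-fold lower in the cold (adjusted p = 8.18e-09). The same bound for YDR042C, SPR3, RRT12, SPO20, SPO19 and YFL012W lay between 13.3-fold for YFL012W and 26.8-fold for YDR042C. The rises were smaller. The hexokinase gene HXK2 (YGL253W) rose most, with 10.04 and 9.90 on the cold arrays and 6.58 and 6.81 on the control arrays (3.27 ± 0.27 SE, adjusted p = 3.05e-08), and the proline permease gene PUT4 (YOR348C) gave 11.93 and 11.90 on the cold arrays and 8.67 and 8.69 on the control arrays (3.23 ± 0.34 SE, adjusted p = 5.55e-07). Arrays without overlap were a condition for naming the largest rises and falls, so the separation of the groups in these genes is no added support. The next were SIP18 (2.92), a hydrophilin, SPG1 (2.89), a stationary-phase gene, NSR1 (2.81), SRL1 (2.72), a cell wall mannoprotein, and DAL7 (2.68), a malate synthase of allantoin breakdown. IDP3, DAL2, RLP24, DAL4, GID10, CRF1, ADH5 and SHH4 completed the 15, down to 2.19.

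**Figure D1:**
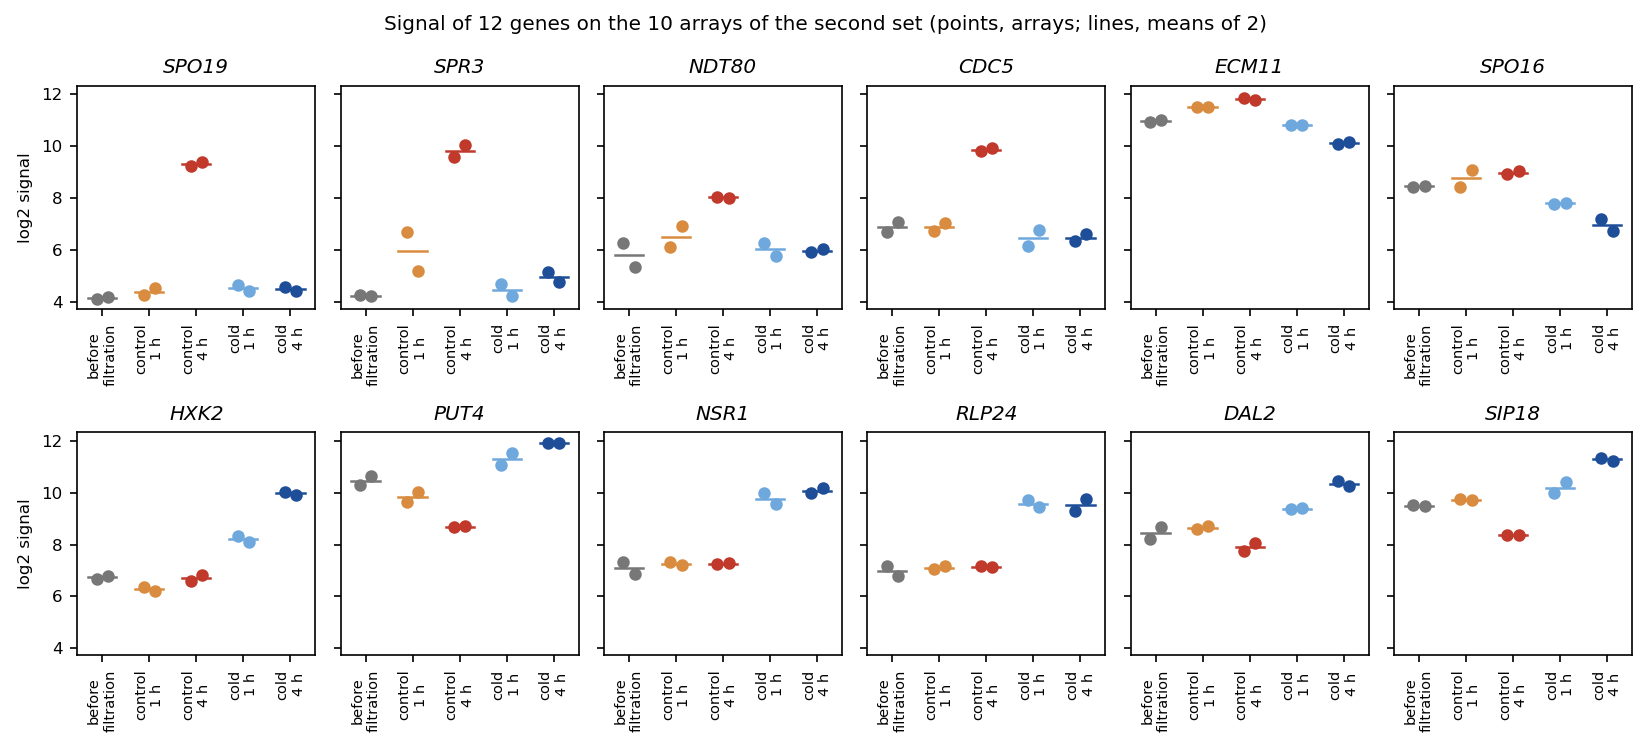
Log2 signal of 12 genes (vertical axis) on each of 10 arrays (points) in 5 groups along the horizontal axis, with the mean of 2 arrays as a line. In the upper row the cold arrays at 4 h lie below the control arrays at 4 h, with SPO19 under the filter level of 5.44, as before filtration, and SPO16 below its level before filtration, and in the lower row they lie above them.

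At the head of the cascade IME1 did not pass the test, while IME2 and NDT80 fell. IME1, the master regulator of entry, stood at 12.18 and 12.10 on the cold arrays and 12.39 and 12.45 on the control arrays (log2 difference -0.28 ± 0.29 SE, adjusted p = 0.482). IME2, the kinase it induces, gave 7.53 and 7.46 on the cold arrays and 9.001 and 9.18 on the control arrays (-1.59 ± 0.42 SE, adjusted p = 0.00607). NDT80, the activator of middle genes, gave 5.90 and 6.03 on the cold arrays and 8.06 and 7.999 on the control arrays (-2.06 ± 0.31 SE, adjusted p = 4.59e-05). The arrays of the groups did not overlap for IME2 and NDT80. SUM1, the repressor that competes with Ndt80 at middle promoters, stood at 0.35 (adjusted p = 0.173), and HST1, the deacetylase that works with it, fell (-0.71 ± 0.14 SE, adjusted p = 0.000801). SLZ1, which acts with the RNA methyltransferase of meiotic entry, fell by a larger amount (-1.70 ± 0.37 SE, adjusted p = 0.0014). Over the whole list of 13 entry and NDT80 regulators, 6 fell, 0 rose and 7 did not pass, with a median of -0.67. NDT80 before filtration stood at 6.26 and 5.35, against 5.90 and 6.03 after 4 h in the cold.

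Genes of recombination and of the synaptonemal complex, which belong to the early part of the programme, fell together. Of 27 tested from a list of 29, 25 fell, 20 of them by at least 2-fold, 0 rose, and the median was -1.20. ECM11, a central element protein of the complex, gave 10.10 and 10.15 on the cold arrays and 11.84 and 11.76 on the control arrays (-1.68 ± 0.14 SE, adjusted p = 3.78e-08). MSH5, a MutS homologue that promotes crossovers, gave 6.88 and 6.85 on the cold arrays and 8.85 and 8.85 on the control arrays (-1.98 ± 0.18 SE, adjusted p = 1.21e-07), and SPO16, of the same crossover pathway, 7.18 and 6.73 on the cold arrays and 8.92 and 9.04 on the control arrays (-2.03 ± 0.23 SE, adjusted p = 1.41e-06). Control arrays exceeded cold arrays in all 3. HOP2 (-1.26), an accessory of strand exchange, and SPO22 (-1.52), the Zip4 protein, fell too. The median signal of the list was 7.65 and 8.14 before filtration and 6.999 and 6.90 after 4 h in the cold, and the mean level in the cold was below that before filtration for 26 of the 27 genes, and MND1 lay under the filter level in both. Leaving out each of the 4 arrays in turn left 17 to 19 falls, fewest without the second control array. Against the 4 h DMSO control, 21 of 27 fell.

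The regulators of the meiotic divisions differed more widely. Of 20, 17 fell and 0 rose, with a median of -1.53. MAM1, a monopolin subunit that ties sister kinetochores together at the first division, gave 6.32 and 6.37 on the cold arrays and 9.65 and 9.92 on the control arrays (-3.44 ± 0.16 SE, adjusted p = 1.34e-10). CDC5, the polo kinase that takes cells out of pachytene, gave 6.34 and 6.60 on the cold arrays and 9.80 and 9.92 on the control arrays (-3.39 ± 0.30 SE, adjusted p = 8.94e-08), and CLB1, the main meiotic B-type cyclin, 5.52 and 5.90 on the cold arrays and 8.21 and 8.50 on the control arrays (-2.64 ± 0.32 SE, adjusted p = 2.96e-06). In these 3 the cold arrays lay far below the control arrays. The B-type cyclins CLB4 (-2.57) and CLB3 (-1.52) fell, as did SGO1 (-1.97), the shugoshin that protects centromeric cohesin. PDS1 (-1.80), the securin, fell too, and CLB6, a cyclin of premeiotic S phase, fell to values under the filter level (4.93 and 4.70 on the cold arrays and 6.40 and 6.65 on the control arrays, at least 2.12-fold lower, adjusted p = 1.89e-06). CDC5 stood at 6.67 and 7.08 before filtration, against 6.34 and 6.60 on the cold arrays.

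The prospore membrane and spore wall genes carried the lowest medians of the 38 lists, beside a short late list. Their cold means lay under the filter level in 7 of 23 prospore and 12 of 31 wall genes. Of these, 7 prospore and 9 wall genes were called as falls, and the sizes of those falls are lower bounds. With means under the level set to it, the list medians were -2.12 and -2.65. Of 23 genes of the meiotic outer plaque and prospore membrane, 21 fell and 0 rose (median -2.65). SPO20, the t-SNARE that fuses vesicles into the prospore membrane, gave 4.98 and 5.56 on the cold arrays and 9.26 and 9.79 on the control arrays (at least 16.9-fold lower, adjusted p = 1.48e-09), and SPS1, a protein kinase needed for membrane closure, gave 5.86 and 5.91 on the cold arrays and 9.70 and 10.001 on the control arrays (-3.96 ± 0.27 SE, adjusted p = 3.43e-09). SMA1 (-3.41) and SMA2 (at least 7.53-fold lower), which take part in membrane assembly, fell likewise. Of 31 spore wall genes 26 fell, 24 by at least 2-fold, and 0 rose (median -3.11). CDA2, a chitin deacetylase that makes the chitosan layer, gave 6.94 and 6.73 on the cold arrays and 11.02 and 11.44 on the control arrays (-4.40 ± 0.23 SE, adjusted p = 2.37e-10), and DTR1, the dityrosine transporter, gave 6.94 and 6.70 on the cold arrays and 10.81 and 11.16 on the control arrays (-4.16 ± 0.25 SE, adjusted p = 8.56e-10). GAS4 (-3.97), a glucanosyltransferase of the wall, OSW1, an outer wall protein with cold values under the filter level, and SPS4 (-4.19) fell, all with control arrays above cold arrays. DIT1, the enzyme that starts dityrosine synthesis, was low on all 4 arrays, with 4.96 and 4.89 on the cold arrays and 5.10 and 5.33 on the control arrays (-0.28 ± 0.24 SE, adjusted p = 0.377). The glucoamylase SGA1, which breaks down glycogen late in sporulation, fell by 3.51, and the 4 other genes of a short late list (SRD1, SPR6, GAT4 and GAT3) also fell. Of these SRD1 was at least 4.75-fold lower, and GAT3, also under the level in the cold, at least 1.11-fold.

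**Figure D2:**
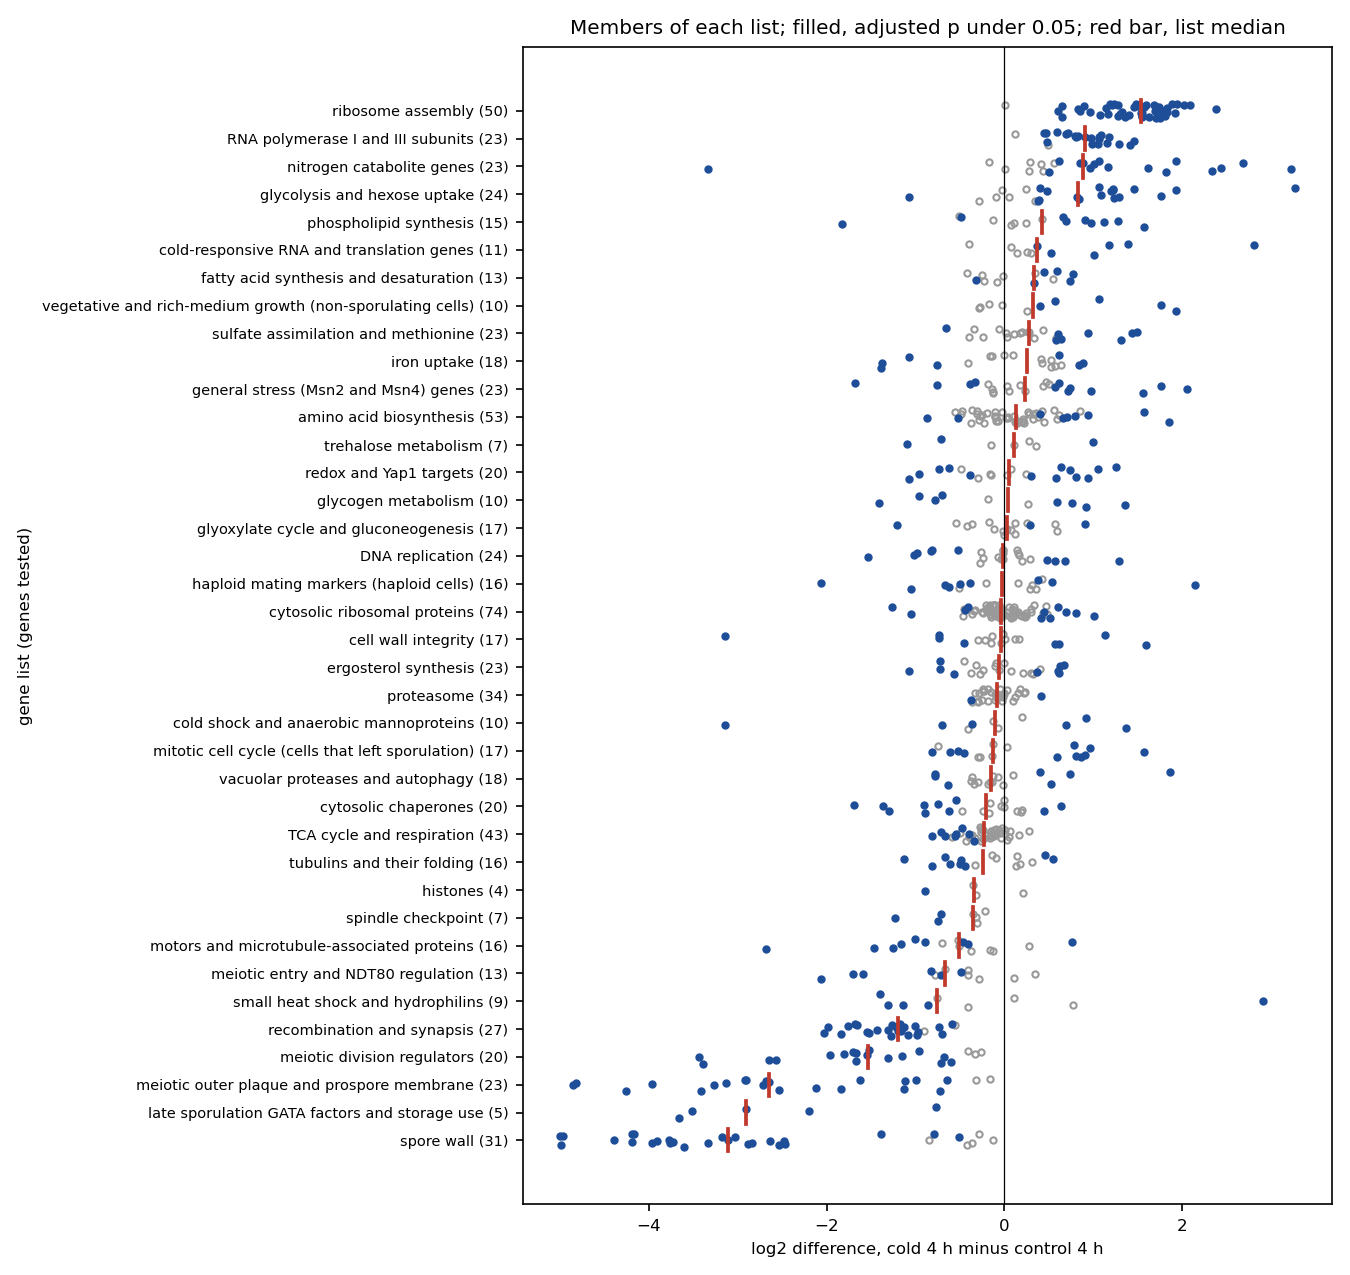
Log2 difference, cold 4 h minus control 4 h (horizontal axis), for each member (points) of 38 gene lists (vertical axis, number of genes tested in brackets), with filled points at an adjusted p under 0.05 and the list median as a red bar. The sporulation lists sit at the lower end, with spore wall at -3.11, and ribosome assembly at the upper end, at 1.54. With means under the filter level set to it, the spore wall median was -2.65.

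Genes that other cells of the study induced between 1 h and 4 h after filtration serve as a reference for the cold comparison. On the DMSO arrays, which the cold comparison does not use, 49.5% of genes differed between 1 h and 4 h (19.1% higher and 30.4% lower at 4 h), and 584 of them were 2-fold or more higher at the later time. From the filtered control at 1 h to that at 4 h, 187 genes were called 2-fold or more higher, so the 2 courses were not alike in size. In the cold against its control 365 of the 584 (62.5%) fell and 18 (3.08%) rose, with a median of -0.69. Their median signal was 7.03 and 7.03 before filtration, 8.01 and 8.16 on the control arrays at 4 h, and 7.01 and 7.05 on the cold arrays at 4 h. After 1 h in the cold it was 7.03 and 7.01, and 42 fell and 58 rose against the 1 h control. The cold arrays at 4 h were thus at the level before filtration in the median. By group means, 253 of the 584 were above that level, 241 below, and 90 under the filter level in both groups. These counts take in differences of any size, so they do not show whether single genes left that level. Of the 180 genes that fell by at least 2-fold over the DMSO course, 99 were higher in the cold and 6 lower, with a median of 0.60. Among the 336 genes that fell at least 2-fold in the cold comparison, the median was 7.48 before filtration, 8.80 in the control and 6.90 in the cold. In the cold 64 stood above their level before filtration. Within 1 log2 unit of that level lay 257 of the 336 in the cold and 162 in the control. Among the 358 that rose at least 2-fold, the median was 7.45 before filtration, 7.17 in the control and 8.67 in the cold. In the cold 339 stood above their level before filtration. Within 1 log2 unit of that level lay 142 of the 358 in the cold and 307 in the control. These last 2 sets were chosen by the cold comparison itself, so their levels are a description.

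**Figure D3:**
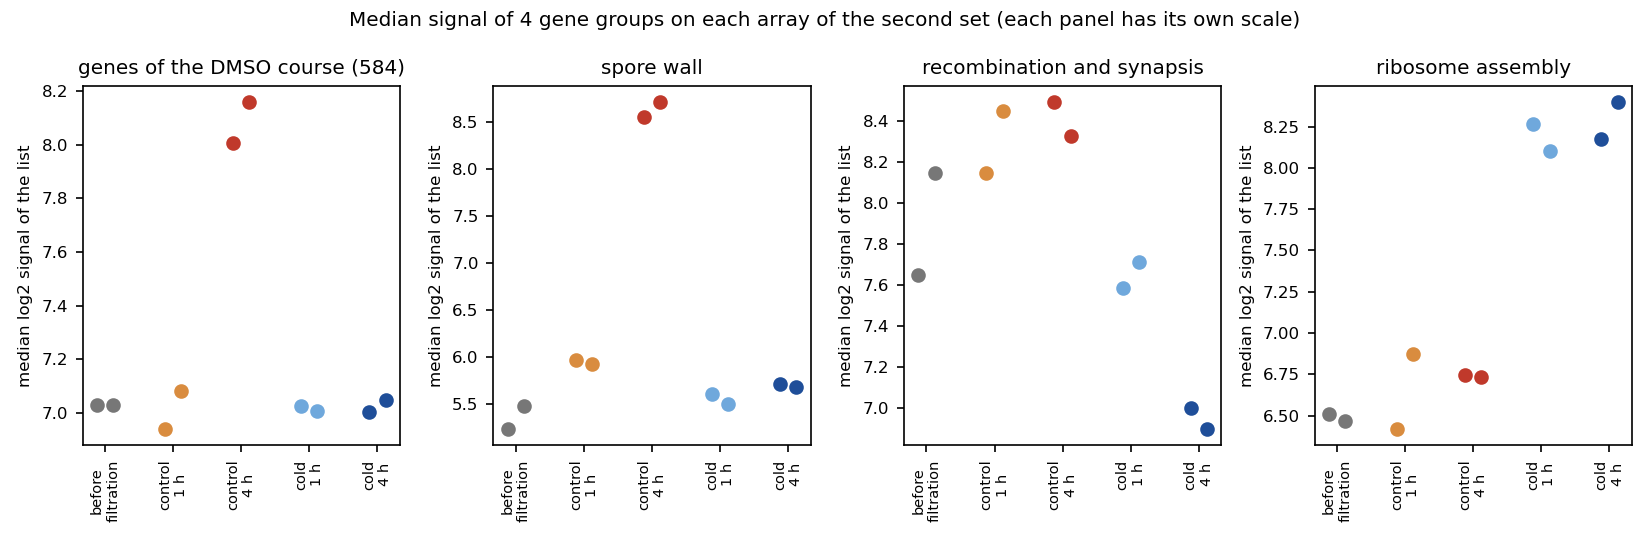
Median log2 signal (vertical axes, each with its own scale) of 4 gene groups on each array (points) of 5 groups of arrays. The course genes and the spore wall genes are high on the control arrays at 4 h only, recombination genes are lowest on the cold arrays at 4 h (6.999 and 6.90), and ribosome assembly genes are high on the cold arrays of both times.

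Of the microtubule system, both α-tubulin genes and the β-tubulin gene were lower in the cold. TUB1, the major α-tubulin, gave 11.65 and 11.70 on the cold arrays and 12.45 and 12.52 on the control arrays (-0.81 ± 0.13 SE, adjusted p = 0.000109). TUB3, the minor α-tubulin, gave 9.40 and 9.26 on the cold arrays and 10.45 and 10.48 on the control arrays (-1.13 ± 0.13 SE, adjusted p = 1.63e-06), and TUB2, the β-tubulin, 11.67 and 11.54 on the cold arrays and 12.04 and 12.06 on the control arrays (-0.44 ± 0.10 SE, adjusted p = 0.00189). The groups did not overlap, although the differences were small beside those of the spore wall. Of 16 genes for tubulins and their folding 7 fell and 2 rose, among the falls PFD1, a prefoldin subunit, and CIN2, of the tubulin folding pathway, both with cold means under the filter level and at least 1.51-fold and 1.4-fold lower, and the 2 rises became 0 to 1 with 1 array left out, fewest without the second cold array. Of 16 motors and microtubule-associated proteins 8 fell and 1 rose. The falls included STU2 (-2.69), a microtubule polymerase, KAR3 (-1.47), a kinesin, its partner CIK1 (-1.17), and DYN1 (-1.25), the dynein heavy chain, while BIK1, a plus-end protein, rose by 0.77. Without the second cold array 5 of the 16 fell. Of 7 spindle checkpoint genes 3 fell, 1 when the first cold array or the second control array was left out, and MAD2 did not pass the test (-0.36, adjusted p = 0.0916). Of 24 DNA replication genes 6 fell and 4 rose, with POL1, the catalytic subunit of polymerase α, at -1.54 and RNR4, of ribonucleotide reductase, at 1.29; the 4 rises became 1 to 2 with 1 array left out, fewest without the second control array.

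Genes for assembling ribosomes rose together and formed the highest list. Of 50, 49 rose, 42 of them by at least 2-fold, and 0 fell, with a median of 1.54. RLP24, which travels with the pre-60S particle, gave 9.31 and 9.76 on the cold arrays and 7.16 and 7.14 on the control arrays (2.38 ± 0.22 SE, adjusted p = 1.28e-07). CIC1, a nucleolar factor of the same particle, gave 7.69 and 7.79 on the cold arrays and 5.87 and 6.001 on the control arrays (1.80 ± 0.16 SE, adjusted p = 8.22e-08), and NMD3, the export adaptor of the large subunit, gave 8.002 and 8.21 on the cold arrays and 6.32 and 6.41 on the control arrays (1.74 ± 0.16 SE, adjusted p = 1.25e-07). Every cold array was above every control array in these 3. KRR1 (1.57) and IMP4 (1.72), of the small subunit processome, and DBP10 (1.69), a helicase, rose as well. The median signal of the 50 genes was 6.51 and 6.47 before filtration, 6.75 and 6.73 in the control, and 8.17 and 8.40 in the cold, and no gene of the list with a mean above the filter level stood below its level before filtration in the cold. With 1 array left out 47 to 49 rose, and against the 4 h DMSO control 47 rose and 1 fell.

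The polymerases that make ribosomal and transfer RNA rose too, while the ribosomal proteins gave no single direction. Of 23 subunits of RNA polymerases I and III, 21 rose and 0 fell (median 0.91). RPC40, shared by both enzymes, gave 8.37 and 8.53 on the cold arrays and 7.04 and 6.95 on the control arrays (1.46 ± 0.15 SE, adjusted p = 6.3e-07), and RPA135, the second largest subunit of polymerase I, rose by 1.07. RPA34 (1.29) and RPA14 (1.07) of polymerase I and RET1 (0.98) of polymerase III rose too. Of 74 cytosolic ribosomal proteins tested from a list of 127, 7 rose and 4 fell, below the background in either direction, and the median was -0.04; the median was 0.10 with median centring in place of quantile normalization. RPS27A rose (1.01 ± 0.17 SE, adjusted p = 0.000111) and RPL15B fell (-1.05 ± 0.16 SE, adjusted p = 3.88e-05). Leaving out 1 array gave 1 to 8 rises, fewest without the second cold array, and 1 to 5 falls, fewest without the first cold or the first control array, and the 4 h DMSO control gave 56 rises, so no direction is given for this family. Many ribosomal protein genes are pairs of near-identical copies whose probes may not tell them apart.

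NSR1, the nucleolin homologue known from the cold response of growing yeast, gave 9.97 and 10.16 on the cold arrays and 7.23 and 7.29 on the control arrays (2.81 ± 0.24 SE, adjusted p = 6.39e-08). Before filtration it stood at 7.31 and 6.88. The DEAD-box helicases DBP2 (1.39), DED1 (1.01) and FAL1 (at least 2.13-fold, from a control mean under the filter level) rose also. In all 6 of 11 genes of this list of cold-responsive RNA genes rose and 0 fell. A mixed list of cold shock and anaerobic mannoprotein genes did not move as 1 group: 3 of 10 rose and 3 fell. TIP1 rose, with 13.52 and 13.43 on the cold arrays and 12.54 and 12.59 on the control arrays (0.92 ± 0.22 SE, adjusted p = 0.00288), CWP2 and TIR4 rose by 1.37 and 0.70, TIR1 did not pass the test (0.20, adjusted p = 0.347), and CWP1 fell by 3.14. The control arrays of CWP1 stood at 12.74 and 13.01, against 9.75 and 9.72 in the cold and 11.48 and 11.69 before filtration.

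In sugar metabolism more genes rose than fell. Of 24 genes of glycolysis and hexose uptake 17 rose and 1 fell (median 0.83), or 11 rose when the first cold array or the second control array was left out. Besides HXK2, the pyruvate decarboxylase gene PDC1 gave 12.67 and 12.64 on the cold arrays and 10.87 and 10.58 on the control arrays (1.93 ± 0.20 SE, adjusted p = 5.91e-07), and HXK1, the second hexokinase, rose by 1.29. The hexose carriers HXT6 (1.20) and HXT7 (1.23) and the enolases ENO1 (1.24) and ENO2 (1.77) rose also, each pair with probes shared with a near-identical copy. Of 43 genes of the tricarboxylic acid cycle and respiration 8 fell and 0 rose, with small differences (COX7 -0.82, KGD2 -0.71, SDH4 -0.55). Of all genes, 22.3% were called higher and 18.6% lower. The falls were near that share and are not read as a trait of this list. There 5 fell without the second cold array or either control array, 20 in a fit of the compared groups only, and 7 rose and 10 fell against the 4 h DMSO control. Of 17 glyoxylate and gluconeogenesis genes 2 rose and 1 fell, with FBP1, fructose bisphosphatase, at 0.91 and PCK1, PEP carboxykinase, at -1.21, and 1 rose when any of the 4 arrays was left out.

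Genes under nitrogen catabolite repression are normally silent on good nitrogen sources and switch on with poor ones. In the cold 15 of 23 rose and 1 fell (median 0.89). Those of allantoin use led, with DAL2, the allantoicase, at 10.44 and 10.24 on the cold arrays and 7.73 and 8.06 on the control arrays (2.44 ± 0.24 SE, adjusted p = 2.29e-07), and DAL7, at 8.81 and 8.80 on the cold arrays and 6.19 and 6.06 on the control arrays (2.68 ± 0.22 SE, adjusted p = 3.39e-08). DAL4, the allantoin permease, rose by 2.34 and DAL1, the allantoinase, by 1.61. The exception was AGP1, a broad amino acid permease, with 8.0 and 8.28 on the cold arrays and 11.52 and 11.42 on the control arrays (-3.33 ± 0.16 SE, adjusted p = 1.56e-10). The control arrays of AGP1 were above the cold arrays, the reverse of PUT4 and the DAL genes. In the control the list had come down from a median signal of 9.03 and 9.28 before filtration to 8.26 and 8.57, with 9.75 and 9.58 in the cold. Of 53 genes of amino acid synthesis 7 rose and 2 fell (median 0.13), but 31 rose against the 4 h DMSO control (median 0.71), and 17 rose and 11 fell in a fit of the compared groups only, so no direction is given. Among the 7 were SER3 (1.57), GDH3 (1.86) and ARG1 (0.80). Of 23 sulfate and methionine genes 7 rose and 1 fell, led by SAM1 (1.49), STR3 (1.43) and CYS3 (1.31), and 14 rose against the 4 h DMSO control. Without the second control array, 3 rose in each of those lists.

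Among lipid genes, phospholipid synthesis changed in part. Of 15 genes 7 rose and 2 fell (median 0.42). CDS1, which makes CDP-diacylglycerol, gave 9.19 and 9.36 on the cold arrays and 7.73 and 7.67 on the control arrays (1.58 ± 0.17 SE, adjusted p = 1.11e-06), and CHO2 and OPI3, the methyltransferases to phosphatidylcholine, rose by 1.28 and 0.69. The activator INO2 (0.90) and the repressor OPI1 (1.12) of this pathway both rose. CPT1, of the alternative route through choline, fell, with 8.15 and 9.32 on the cold arrays and 10.63 and 10.50 on the control arrays (-1.83 ± 0.22 SE, adjusted p = 3.67e-06). The 2 cold arrays of CPT1 lay further apart than those of the genes above, both below the control. INO1, the classic target of both regulators, did not pass the test (0.11, adjusted p = 0.643). OLE1, the Δ9 desaturase that is known to respond to cold in growing yeast, stood at 11.56 and 11.64 on the cold arrays and 11.20 and 11.31 on the control arrays (0.34 ± 0.14 SE, adjusted p = 0.0645), which missed the threshold. Of 13 fatty acid genes 5 rose and 1 fell, with 1 to 3 rises when 1 array was left out, fewest without the first cold or the second control array, and ACC1, acetyl-CoA carboxylase, rose by 0.77. Of 23 ergosterol genes 5 rose and 4 fell, with ERG5 at -1.08 and ERG8 at -0.73, and the rises became 2 to 4 with 1 array left out, fewest without the second cold or second control array, and 9 against the 4 h DMSO control.

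More chaperone genes fell than rose. Of 20 cytosolic chaperones 8 fell and 2 rose, and the rises became 0 to 1 with 1 array left out, fewest without the second cold or either control array. SSA3, an inducible Hsp70, gave 7.43 and 7.68 on the cold arrays and 9.19 and 9.30 on the control arrays (-1.69 ± 0.21 SE, adjusted p = 4.17e-06), AHA1, an Hsp90 co-chaperone, gave 7.61 and 7.59 on the cold arrays and 8.95 and 8.99 on the control arrays (-1.37 ± 0.12 SE, adjusted p = 8.53e-08), and SIS1, a J protein, fell by 1.30. Of 9 genes in a mixed list of heat shock and hydrophilin genes, 4 fell and 1 rose. HSP26 gave 6.73 and 6.90 on the cold arrays and 8.02 and 8.22 on the control arrays (-1.30 ± 0.28 SE, adjusted p = 0.00139). SSA4 (-1.14) and HSP30 (-1.40) fell, whereas SIP18 gave 11.34 and 11.22 on the cold arrays and 8.37 and 8.36 on the control arrays (2.92 ± 0.32 SE, adjusted p = 1.18e-06). HSP12, one of the strongest stress genes, stood near 13 on the log2 scale in both groups (0.11, adjusted p = 0.742). Of 23 general stress genes 8 rose and 4 fell, with RTC3 (2.05), SPI1 (1.77) and STF2 (1.56) high and the phosphatase SDP1 low (-1.68). Of 20 redox genes 8 rose and 5 fell, among them GRE2 (at least 1.73-fold higher, with a control mean under the filter level), AHP1 (1.05) and TSA1 (-0.62). Without the second cold array 2 general stress genes and 2 redox genes fell, and without the second control array 5 redox genes rose.

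In the lists of reserve carbohydrate, wall and turnover genes, calls went in both directions. Over all genes the shares called were 22.3% higher and 18.6% lower. The wall and vacuolar counts here, and the ergosterol and DNA replication counts above, were near them and are not read as traits of those lists. Of 7 trehalose genes TSL1 rose (1.00), the trehalases NTH1 (-0.71) and NTH2 (-1.09) fell, and the synthase TPS1 did not pass (0.11, adjusted p = 0.636). Of 10 glycogen genes 4 rose and 4 fell, with the phosphorylase GPH1 at 1.35 and the synthase GSY1 at -0.96. Of 17 cell wall integrity genes 4 rose and 4 fell, PIR3 (1.59) and PIR1 (1.13) among the rises. Of 18 vacuolar and autophagy genes 4 rose and 3 fell, and the rises became 1 to 3 with 1 array left out, fewest without the second control array. The carboxypeptidase CPS1 rose by 1.87 and the kinase gene ATG1 fell by 0.78. Without the first control array 2 glycogen genes and 2 wall genes fell. Of 34 proteasome genes 1 rose and 1 fell, of 18 iron uptake genes 3 rose and 4 fell (9 rose against the 4 h DMSO control), and of 4 histone genes 1 fell. Of 10 genes of vegetative growth 5 rose, PDC1 and the enolase ENO2 among them, and 3 did when the first cold or the second control array was left out. Among mitotic genes CLN3 (1.58) and CLN1 (at least 1.48-fold), both G1 cyclins, rose and FAR1 (at least 1.66-fold), a cyclin kinase inhibitor, fell, the latter 2 with 1 group mean under the filter level.

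To ask whether the effect of cold changed with time, the 4 h comparison was set against cold at 1 h with its own 1 h control, which share no array. At 1 h 1273 of 5464 genes differed (23.3%), 824 higher (15.1%) and 449 lower (8.22%). Of the genes higher at 1 h, 608 were also higher at 4 h (73.8% of the 1 h list and 49.8% of the 4 h list), and of those lower, 251 (55.9% and 24.7%). The Pearson correlation of the log2 differences across genes was 0.59, a description over genes that are not independent. The difference of the effects, tested in the same fit, was called for 502 genes (9.19%), 164 with a higher value at 4 h (3%) and 338 with a lower one (6.19%). This count rests on few arrays: over probe sets it was 617, and 407 without the first cold array, 346 without the second control array and 389 without the first 1 h cold array.

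Genes of spore formation made up the lists with the highest shares of difference between the times. Of 31 spore wall genes 23 had a lower effect at 4 h and of 23 prospore membrane genes 20, while for ribosome assembly 0 were higher and 1 lower. The median signal of the spore wall list at 1 h was 5.97 and 5.93 in the control and 5.60 and 5.50 in the cold. These values lay near the filter level, so a large fall could not show at 1 h. In the control the median was 8.55 and 8.71 at 4 h, and this rise enters the difference between the times. RRT5 gave 0.25 at 1 h and -4.99 at 4 h, a difference of -5.25 ± 0.36 (SE; adjusted p = 5.98e-08). YPR078C (-5.08), SPR2 (-4.98) and PES4 (-4.61) also ranked low, as did YDL186W and SPO19. On the filtered controls SPO19 moved from 4.26 and 4.52 at 1 h to 9.24 and 9.40 at 4 h, while in the cold it read 4.63 and 4.40 and then 4.58 and 4.43. All of these but the control values at 4 h lay under the filter level, which also limits the sizes for SPO19 and YDL186W. NSR1 read 2.50 at 1 h and 2.81 at 4 h, and their difference did not pass the test (adjusted p = 0.681). Among genes with a higher effect at 4 h, ADH5, an alcohol dehydrogenase, gave -0.41 and 2.27 (2.67 ± 0.30 SE, adjusted p = 7.16e-06) and DAL4 -0.03 and 2.34 (2.37 ± 0.47 SE, adjusted p = 0.0027). HIS4, of histidine synthesis, gave -1.86 at 1 h and 0.62 at 4 h, where it did not pass (adjusted p = 0.0627). Nitrogen catabolite genes were higher at 4 h in 10 of 23, and 8 of 53 amino acid genes were, of which list 18 had fallen at 1 h.

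**Figure D4:**
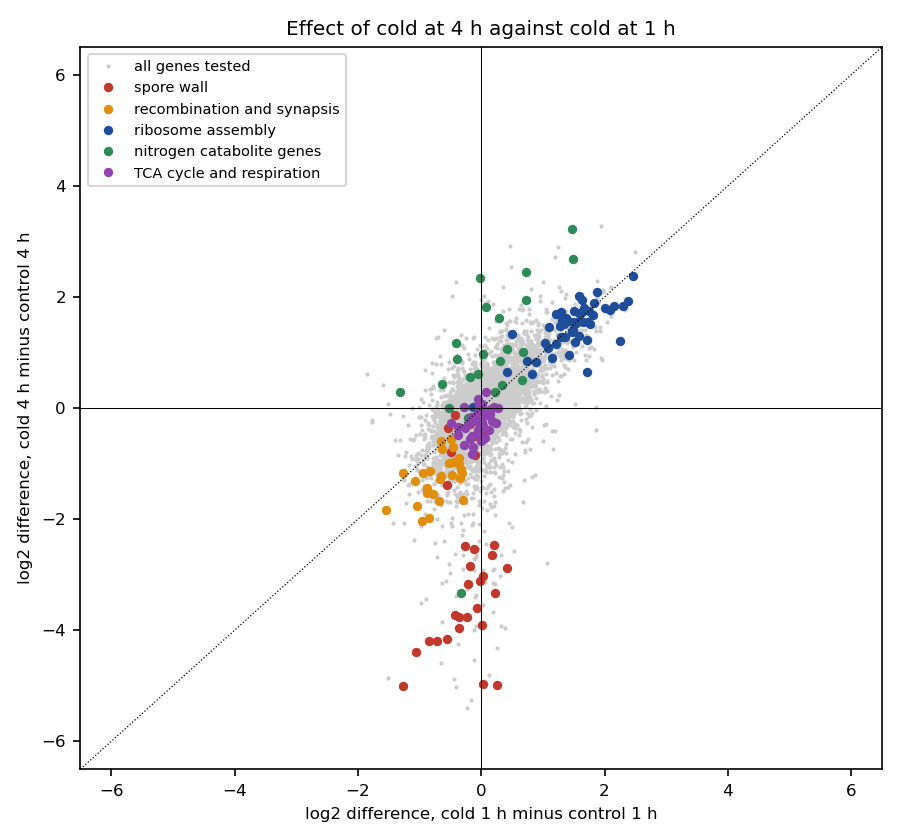
Log2 difference of each gene tested at 1 h of cold (horizontal axis) and at 4 h (vertical axis), each against its own filtered control, with 5 gene lists in colour and equality as a dotted line. Ribosome assembly genes lie along equality, and spore wall genes lie far below it, with RRT5 at 0.25 and -4.99.

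Benomyl and cold are both known to depolymerize microtubules, so benomyl at 4 h against DMSO at 4 h was set beside the cold comparison. The pairs share no array, but they come from separate array sets, and cold was read against a control without stated DMSO. Benomyl changed 2077 genes (38%), 1113 higher (20.4%) and 964 lower (17.6%). Of the genes lower in the cold 450 were lower with benomyl (44.3% of the cold list and 46.7% of the benomyl list), and 131 were higher with benomyl. Of those higher in the cold, 373 were higher with benomyl (30.6% and 33.5%) and 79 lower. Across genes the Pearson correlation of the 2 effects was 0.40 and the Spearman value 0.29, given as a description. The difference of the effects was called for 1701 genes (31.1%), 850 higher in the cold and 851 lower (15.6% each). Over probe sets the count was 2111, and it was 3642 with array weights, 3536 with only the 4 groups compared and 3179 without the 1 h benomyl and 1 h filtered control arrays, whose replicates lay furthest apart.

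Most spore formation genes fell under both treatments, and by more in the cold. With benomyl 24 of 31 spore wall genes fell with a median of -1.17, against -3.11 in the cold, and the cold effect was lower in 23. With means under the filter level set to it, the cold median was -2.65. PES4 gave -0.80 with benomyl and -5.03 in the cold (-4.23 ± 0.39 SE, adjusted p = 1.02e-06), while SPO19 gave -0.49 with benomyl (adjusted p = 0.367) and a cold fall that the filter level bounds, with a difference called at an adjusted p of 2.34e-05. The SPO19 signals were 9.19 and 9.19 with benomyl and 9.78 and 9.59 in DMSO, all well above the cold arrays. Division regulators fell in 14 of 20 with benomyl, and the cold effect was lower in 8. For CDC5 the values were -1.16 with benomyl and -3.39 in the cold, and for NDT80 -1.19 and -2.06 (difference -0.87 ± 0.45 SE, adjusted p = 0.162).

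Other groups went apart. Recombination genes rose with benomyl in 4 of 27 and fell in 0, and the difference was called as lower in the cold in 25 of 27. MSH5 gave 0.20 with benomyl and -1.98 in the cold. Ribosome assembly genes rose in 4 and fell in 5 of 50 with benomyl, with the cold effect higher in 44. NSR1 gave -0.24 and 2.81 (3.05 ± 0.34 SE, adjusted p = 7.78e-06), HXK2 -0.77 and 3.27 (4.04 ± 0.38 SE, adjusted p = 1.05e-06), and SRL1 -0.43 and 2.72. Respiration genes rose with benomyl in 26 of 43 and the cold effect was lower in 24. Of 23 sulfate and methionine genes 16 rose with benomyl, and the cold effect was lower in 9. JLP1, which releases sulfite from sulfonates, gave 5.37 with benomyl and 0.49 in the cold, YLL056C, an uncharacterized oxidoreductase relative, 4.38 and 0.04, and AGP1 0.96 and -3.33. The tubulin gene TUB1 gave -0.03 with benomyl (adjusted p = 0.885) and -0.81 in the cold.

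**Figure D5:**
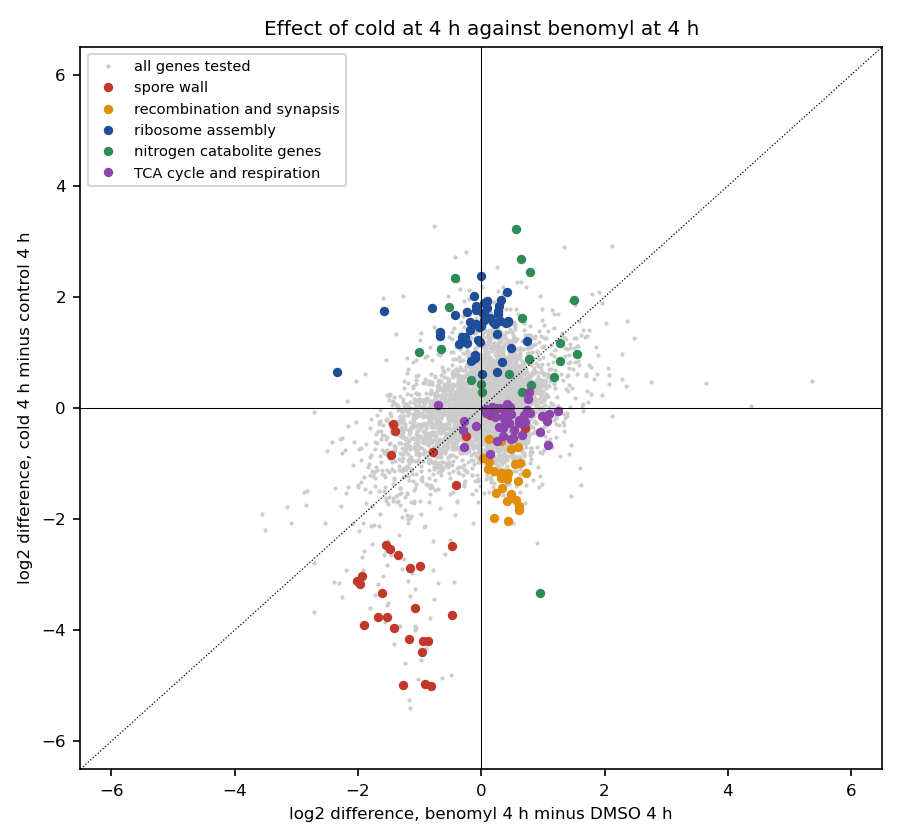
Log2 difference of each gene tested with benomyl at 4 h against DMSO (horizontal axis) and in the cold at 4 h against the filtered control (vertical axis), with 5 gene lists in colour and equality as a dotted line. Spore wall genes are low on both axes and below equality, ribosome assembly genes are high on the vertical axis only, and recombination genes are low on the vertical axis only.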

How the data were processed

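RNA of 26 samples was hybridised to Affymetrix YG_S98 arrays, 13 groups with 2 arrays each. The values deposited by the authors are log2 signals per probe set; the base was inferred from the values, while the summarization method is not given in the sources used here. They were quantile-normalized over all arrays with limma 3.58.1 in R 4.3.3. Control probe sets were left out, and so were 1399 probe sets whose highest group mean was not above the 25th percentile over all arrays (log2 5.44), so 7876 remained. Per the file headers of 16 arrays, their scan settings and days were recorded, and those files served as a batch term only. The other 10 arrays, cold and filtered controls included, had none here and are called the second set. No label names a batch or says that these 10 were handled together. The cold arrays of both times and the other arrays of this set carry separate blocks of sample numbers. A batch along that split could not be told apart from cold. Gene names came from the platform annotation, updated through RefSeq: 6504 of 9335 probe sets had 1 gene, 328 several and 2443 none, and where a gene had more than 1 (275 genes, with opposite calls in MRK1 only) the brightest on average stood for it.

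One limma model with a mean per group and a variance trend was fitted to all arrays (13 residual and 5.24 prior degrees of freedom), because 2 arrays a group give too little on their own. Differences of effects were contrasts in the same fit, with Benjamini-Hochberg adjustment over all probe sets and a threshold of 0.05. The fit was tested on simulated data. Named genes were the 15 genes up most and the 15 down most among those called without overlap of arrays, up to 6 members of each list by adjusted p, a short list given whatever its values, and the 6 highest and lowest of each difference of effects; a few marker and late genes were added beside their lists. Members and lists were chosen with earlier results of these data known. A count of promoter motifs was planned and not run, and no sequence is shown. Alternatives covered the scaling, the filters, the variance model, the control group, batch terms and leaving out each array. Residuals of same-numbered arrays correlated between -0.42 and 0.39 over pairs of groups, with -0.00024 for cold and control at 4 h but 0.28 for cold and control at 1 h and 0.39 for each of these with the cells before filtration. Not every pair exceeded 0.1, so the numbers were not taken as pairing. With 2 arrays a group, their number limits the precision.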

Additional observations from a re-analysis of the deposited data

Results flagged for a closer look

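The effect of cold at 4 h differed from that at 1 h for 617 probe sets. The genes singled out by that test were RRT5 (-5.25), YDL186W (-5.16), YPR078C (-5.08), SPR2 (-4.98), SPO19 (-4.93) and PES4 (-4.61), with a lower effect at 4 h, and ADH5 (2.67), DIC1 (2.49), HIS4 (2.47), SIP18 (2.45), DAL4 (2.37) and IDP3 (2.06), with a higher one, each a difference of log2 differences. The effect of cold at 4 h differed from that of benomyl at 4 h for 2111 probe sets. The lowest were JLP1 (-4.88), YLL056C (-4.34), SPO19 (-4.32), AGP1 (-4.29), YDL186W (-4.24) and PES4 (-4.23), and the highest HXK2 (4.04), FDH1 (3.58), DBP3 (3.34), THI73 (3.28), SRL1 (3.15) and NSR1 (3.05). The probes of FDH1 may also read a near-identical copy. The cold means of SPO19 and YDL186W lay under the filter level, so their sizes are limited by it and not exact. All groups had 2 arrays, so no single array could be tested against the rest of its group.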

How the results depend on the processing

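Of 228 named genes called in the cold comparison, 0 to 10 lost their call under the other scalings, filters, models and batch terms, 18 with the 4 h DMSO control and 18 to 33 with 1 array left out. The scan day and replicate terms could not change the size of the cold difference, only its error. No scan day was available for the cold and control arrays, and both groups held the same replicate numbers. Calls kept under these terms therefore do not bear on a batch effect. The cold comparison called 2847 probe sets and gave 1909 to 2130 with 1 array left out, 4208 with array weights, 3998 with only the groups compared, 3880 without the benomyl and filtered control arrays at 1 h (chosen after seeing the data) and 4794 with the 4 h DMSO control in place of the filtered one. Under that last control, whose arrays also chose the course genes, 567 of them fell, and of named genes ATG5 (-0.11) and QCR2 (0.13) turned sign; cause not tested. The difference from cold at 1 h (617) ranged from 346 to 827 with 1 array left out. With values as deposited, 110 of its calls were higher and 472 lower, against 223 and 394. The difference from benomyl (2111) gave 3642 with array weights, 3536 with only the groups compared and 3179 without the 1 h benomyl and filtered arrays; with median centring its higher and lower calls were 1231 and 826. Adding a replicate block gave 2835 calls for cold, 614 and 2084 for the differences, and 364 falls among course genes; same-numbered cold and control arrays correlated at -0.00024. The number of arrays limits the precision, and signals under the filter level limit the size of the falls to them, since the filter used the highest group mean.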

Other observations

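Gene groups added after the values had been seen give a wider view of the machinery around the ribosome. Of 29 translation initiation and elongation factors 20 rose in the cold and 0 fell (median 0.64), and of 14 subunits and cofactors of the RNA exosome, which trims and degrades RNA, 8 rose and 0 fell (median 0.66). Of 19 aminoacyl-tRNA synthetases 8 rose and 0 fell, with 2 to 6 rises when 1 array was left out, fewest without the second control array. Of 54 mitochondrial ribosomal proteins 16 rose and 2 fell, or 7 rose with the values as deposited and 7 without the second control array. Among non-coding RNAs, 18 of 45 small nucleolar RNAs rose and 0 fell (median 0.41), and of 89 transfer RNA genes 1 rose and 11 fell (median -0.50). The share of all genes called was 22.3% higher and 18.6% lower, and these groups were chosen by how they had moved, so the counts are a description.

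Other added groups gave mixed counts. Of 18 genes of peroxisomal fatty acid oxidation 5 rose and 1 fell, among them IDP3, the peroxisomal isocitrate dehydrogenase, with 8.65 and 8.32 on the cold arrays and 6.08 and 5.83 on the control arrays (2.53 ± 0.36 SE, adjusted p = 2.24e-05). Without the second control array 2 of these 18 rose. Of 26 peroxins 1 rose and 6 fell, of 15 nuclear import factors 2 rose and 2 fell (1 rose without the second cold array), and of 10 purine synthesis genes 3 rose and 1 fell, with 1 to 2 rises when 1 array was left out, fewest without the second cold or either control array.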
